A study of Mus musculus with 25 samples.

Results

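The Piwi pathway genes are 10 genes of the 24358 genes listed for sperm RNA, and they were chosen by symbol: Piwil1, Piwil2, Piwil4, Ddx4, Mael, Mov10l1, Tdrd1, Tdrd5, Tdrd6 and Tdrd9. Of the genes listed, between 15883 and 16612 had 10 counts or more, depending on the condition. Sperm that swam out of the cauda epididymis, the tail of the duct in which sperm are stored, was taken from 14-week-old males, and its long and short RNA was read together by all-RNA-seq. Of the 25 libraries, 5 belonged to each of 5 conditions. C57.CTL.F1 and FVB.CTL.F1 were C57BL/6J and FVB/N sons of females that received the corn oil vehicle by mouth, and C57.D300.F1 and FVB.D300.F1 were sons of females that received 300 mg/kg/day of the plasticizer di(2-ethylhexyl)phthalate (DEHP) from embryonic day 9 to 19. C57.D300.F2 males were grandsons of exposed females, through C57.D300.F1 males mated to females without exposure. All 5 conditions thus differ in strain, in the exposure of an ancestor or in generation, and there was no second generation of the vehicle lineage. The plots carry these labels, and in the text the conditions are called vehicle and exposed C57BL/6J, F2 C57BL/6J for the grandsons, and vehicle and exposed FVB/N.

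The files give 1 value per gene and condition, in which the 5 libraries are already combined. It is the count of fragments estimated by Cuffdiff, scaled between libraries and not divided by gene length. No difference between conditions could be tested, and no spread between libraries was known. The error given here is the SD of the estimate under the Cuffdiff model, and a difference was compared with the model SD of that difference. A gene was set past the 2-fold line when its log2 ratio, with 1 added to each count, was at least 1 in size and it had 10 counts or more in either condition. Folds themselves are ratios of the counts without this addition. Libraries of vehicle C57BL/6J and exposed C57BL/6J (10 in all) were reused from earlier work, and the other 15 were newly made, so that a difference of strain or generation cannot be told apart from one between these sets of libraries, except where both conditions are from 1 set.

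PIWI proteins are Argonaute proteins of the germ line. They carry short guide RNAs, the piRNAs, which are cut from long single-stranded precursors and direct the silencing of transposons. In the fetal testis the pathway guides DNA methylation onto transposons. In meiosis and in round spermatids a much larger set of piRNAs, the pachytene piRNAs, is made, and its proteins gather in the cement between mitochondria and in the chromatoid body, a perinuclear granule of spermatids. Mature sperm hardly transcribe their genome, and RNA made at earlier stages is carried along in them.

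All 10 members had estimates in all 5 conditions, from 12.8 counts to 527 counts. As fractions of the counts, the model SDs were between 0.241 and 0.457, and they were 0.966 to 1.20 times the median of the 200 genes nearest in count. The highest of these ratios was that of Tdrd9 in exposed FVB/N. The members summed to 1354 counts in vehicle C57BL/6J, 1257 in exposed C57BL/6J, 751 in F2 C57BL/6J, 340 in vehicle FVB/N and 405 in exposed FVB/N. The sum was lowest in the FVB/N conditions and intermediate in the second generation of C57BL/6J as deposited. In these bulk samples, fewer germ cells and less RNA per cell cannot be told apart.

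**Figure D1:**
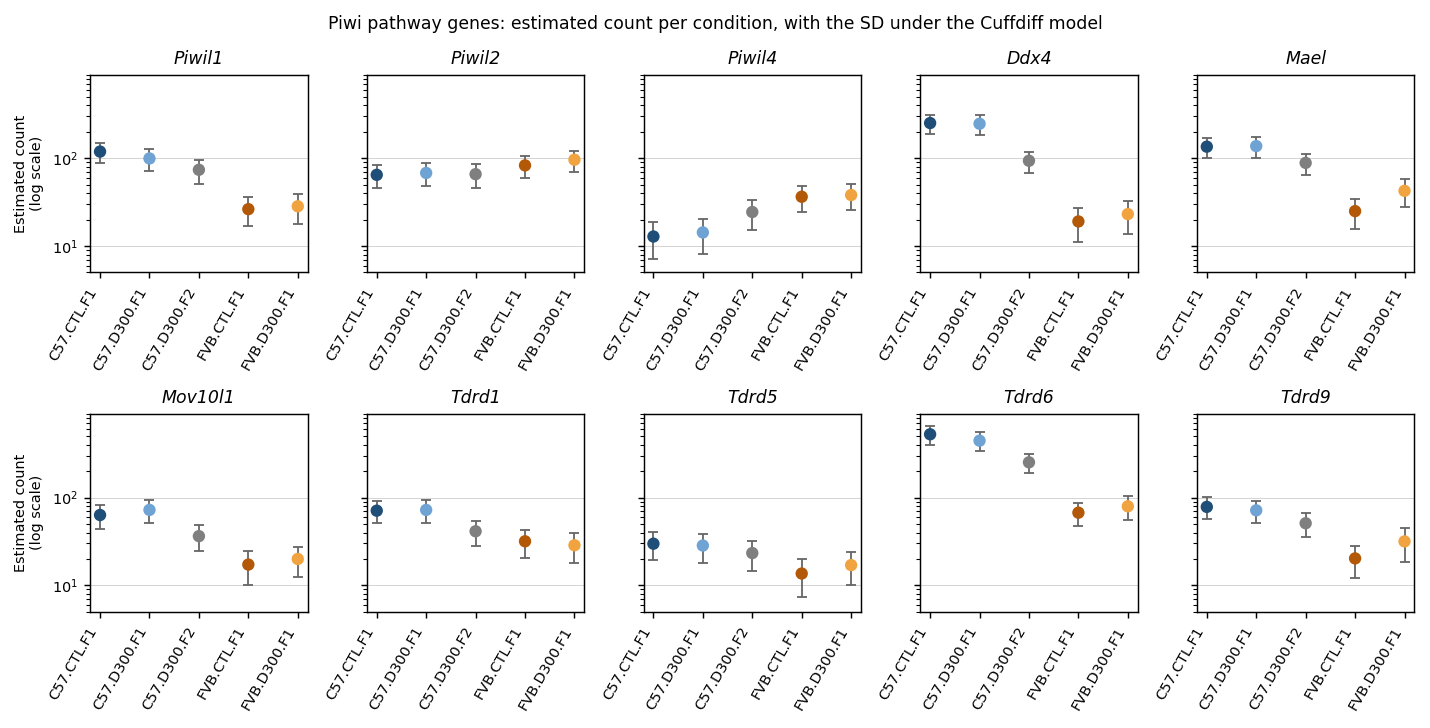
Estimated count (log axis) of each member in the 5 conditions, with bars of 1 SD under the Cuffdiff model, which is not a spread between animals. Of the 10 panels, 8 are higher in the C57BL/6J first generation on the left than in FVB/N on the right as deposited (7 of these 8 reverse without DEHP when conditions are scaled to the sum of spermatid markers, 93.1% to 98.6% of it elongating spermatid counts, a scaling that puts 93.2% of all genes past 2-fold upwards), whereas Piwil2 stays between 64.8 and 96.3 counts and Piwil4 goes from 12.8 to 38.1.

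The PIWI proteins themselves did not share a profile. Piwil1, which encodes MIWI, the protein that binds pachytene piRNAs in spermatocytes and round spermatids, had 119 counts in vehicle C57BL/6J, 99.5 in exposed C57BL/6J, 74.0 in F2 C57BL/6J, 26.3 in vehicle FVB/N and 28.4 in exposed FVB/N. Piwil2, which encodes MILI, present from the fetal testis to the round spermatid, had 64.8, 68.1, 65.9, 83.0 and 96.3 counts in the same order. Piwil4, which encodes MIWI2, the nuclear PIWI protein of fetal germ cells, had 12.8, 14.3, 24.4, 36.4 and 38.1. As deposited, Piwil1 was thus highest in the first generation of C57BL/6J, Piwil4 was highest in FVB/N, and Piwil2 varied little. Scaling to spermatid markers gave Piwil1 a log2 ratio of 1.33 between vehicle FVB/N and vehicle C57BL/6J. It moved the median of all genes there by 3.47.

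Helicases and precursor processing genes followed Piwil1 as deposited. Ddx4, the VASA helicase found in germ cells of most animals, had 252 counts in vehicle C57BL/6J, 247 in exposed C57BL/6J, 93.7 in F2 C57BL/6J, 19.1 in vehicle FVB/N and 23.1 in exposed FVB/N. Mov10l1, the helicase that binds piRNA precursors at the start of their processing, had 63.3, 72.4, 36.4, 17.3 and 19.99 in the same order. Mael, or Maelstrom, needed for transposon silencing in male meiosis, had 136, 138, 88.6, 25.0 and 42.6. For all of these 3 genes both FVB/N values as deposited lay below the second generation of C57BL/6J, which lay below both values of the first.

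The Tudor domain genes encode scaffolds that hold the methylated arginines of PIWI proteins. Tdrd6, a large component of the chromatoid body, had the highest counts of all members in the C57BL/6J conditions, with 527 in vehicle C57BL/6J, 445 in exposed C57BL/6J, 252 in F2 C57BL/6J, 67.3 in vehicle FVB/N and 79.6 in exposed FVB/N. Tdrd9, which joins a Tudor domain to a helicase and acts with MIWI2, had 78.3, 71.6, 51.0, 20.3 and 31.7 counts in the same order. Tdrd1, a partner of MILI, had 70.9, 72.3, 41.3, 31.8 and 28.7. These 3 genes had the same order of strains and generations as deposited. Tdrd5, a further chromatoid body component, had 29.8, 28.4, 23.3, 13.6 and 17.0 counts, the narrowest range of this family.

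Levels of different members were compared per kilobase of merged exons. In vehicle C57BL/6J, Ddx4 (83.6 counts per kilobase), Mael (78.3) and Tdrd6 (74.6) stood highest, with differences within their model SDs. Piwil1 followed with 27.4, below Tdrd6 by more than the SD of the difference, and then Mov10l1 (15.1), Tdrd9 (14.5), Tdrd1 (13.0) and Piwil2 (12.3), which were not separated from each other. Tdrd5 (4.30) and Piwil4 (2.39) stood lowest, and their steps exceeded the SD. The order per kilobase was different in vehicle FVB/N, where Piwil2 (15.7) and Mael (14.4) led, followed by Tdrd6 (9.53), Piwil4 (6.77), Ddx4 (6.33), Piwil1 (6.04), Tdrd1 (5.84), Mov10l1 (4.12), Tdrd9 (3.75) and Tdrd5 (1.97). Between neighbours of that order, the step from Tdrd9 to Tdrd5 was the only one larger than its SD. Piwil4 therefore went from the last place in vehicle C57BL/6J to the fourth in vehicle FVB/N, and Ddx4 from the first to the fifth. The merged exons of Piwil4 are 5.385 kb long and its longest transcript 3.304 kb, and with the latter its level was 3.89 counts per kilobase in vehicle C57BL/6J and 11.03 in vehicle FVB/N, the latter above Tdrd6 in value.

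The samples were checked against marker lists of germ cells and tract tissues. The 8 markers of elongating spermatids, led by Smcp and Odf1 and including both protamines, summed to between 6862 counts in vehicle FVB/N and 83801 in vehicle C57BL/6J, and none was below 10 counts. Spermatocyte markers, led by Sycp1 and Sycp2, summed to between 130 and 302 counts, and spermatogonial markers, led by Kit and Zbtb16, to between 474 and 596, with Stra8, Sohlh1 and Dmrt1 at 4.74 counts or fewer in every condition. Round spermatid markers, led by Tssk2 and Crem, summed to between 303 and 1357. Markers of Sertoli cells (led by Wt1 and Sox9) summed to between 174 and 356 counts, with Rhox5 at 2.21 or fewer in every condition, and those of Leydig cells (Cyp17a1, Star) to between 116 and 355. Some other tissues stood apart in 1 or 2 conditions: seminal vesicle markers (Svs4, Svs2) at 214761 counts in vehicle C57BL/6J and at most 496 elsewhere, epididymal markers (Gpx5, Lcn5) at 40378 in exposed FVB/N and at most 281 elsewhere, and liver markers (Alb, Ttr) at 170343 and 153424 in the reused libraries and at most 4080 in the new ones. Against vehicle C57BL/6J, 0 of 5 seminal vesicle markers exceeded the model SD in exposed C57BL/6J, F2 C57BL/6J or vehicle FVB/N. Smooth muscle markers (Acta2, Myh11) summed to between 7680 and 17808 counts, and blood markers (Hbb-bs, Hba-a2) to between 1056 and 5196, with Hba-a1, a near-identical copy of Hba-a2, near 0.

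Sequences before the starts of the members are shown because 8 of the 10 members stood lower together in FVB/N as deposited. RefSeq starts on GRCm38.p6 were matched for 8 of the 10 members, all but Piwil2 and Tdrd6, with 11 windows of 250 bases in all. The E-box CACGTG, which reads the same on both strands, was found in windows of 6 of the 8 genes, Ddx4, Mael, Mov10l1, Piwil1, Tdrd1 and Tdrd9, and in 7 of the 11 windows, of which 2 overlap at Tdrd1 and share the site. The windows of Piwil1 and Tdrd9 each hold 2 copies. It was present in 6.02% of all 32851 windows, in 6.86% of 27025 genes with a window, and in 9.09% of the 15211 windows with more than the median of 6 CpG. No match lay in the windows of Tdrd5 and Piwil4. A second motif, AACTGNC on either strand, as bound by MYB factors such as the pathway regulator A-MYB, was present in 1 of the 8 genes, Piwil1, against 12.1% of all genes with a window. The windows of Ddx4 (GRCm38.p6 chr13:112652311-112652560, minus strand), Mael (chr1:166238745-166238994, minus strand), Piwil1 (chr5:128735996-128736245, plus strand) and Piwil4 (chr9:14740673-14740922, minus strand) are given 5′ to 3′ and end at the base before the RefSeq start. The GENCODE M21 annotation places starts elsewhere. By its gene spans, the Piwil1 window lies wholly inside Piwil1 (chr5:128702524-128755474). The windows of Ddx4, Mael and Piwil4 lie partly inside their genes. Capitals mark the E-box and, in Piwil1, also the MYB motif, which reads GGCAGTT on this strand.
Ddx4: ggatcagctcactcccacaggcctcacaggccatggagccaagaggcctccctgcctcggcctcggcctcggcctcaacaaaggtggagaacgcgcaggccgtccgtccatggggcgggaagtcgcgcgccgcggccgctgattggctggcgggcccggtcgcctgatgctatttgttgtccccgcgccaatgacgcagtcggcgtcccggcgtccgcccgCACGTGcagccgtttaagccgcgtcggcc
Mael: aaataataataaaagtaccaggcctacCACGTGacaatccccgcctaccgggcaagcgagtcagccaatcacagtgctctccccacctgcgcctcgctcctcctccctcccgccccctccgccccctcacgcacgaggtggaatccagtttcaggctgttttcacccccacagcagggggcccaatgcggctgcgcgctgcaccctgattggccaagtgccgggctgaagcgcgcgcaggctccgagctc
Piwil1: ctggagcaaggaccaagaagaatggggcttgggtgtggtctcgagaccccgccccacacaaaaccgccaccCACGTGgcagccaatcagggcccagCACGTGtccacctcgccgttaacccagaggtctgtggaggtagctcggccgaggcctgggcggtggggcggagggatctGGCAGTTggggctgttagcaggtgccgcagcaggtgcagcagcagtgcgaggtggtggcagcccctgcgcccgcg
Piwil4: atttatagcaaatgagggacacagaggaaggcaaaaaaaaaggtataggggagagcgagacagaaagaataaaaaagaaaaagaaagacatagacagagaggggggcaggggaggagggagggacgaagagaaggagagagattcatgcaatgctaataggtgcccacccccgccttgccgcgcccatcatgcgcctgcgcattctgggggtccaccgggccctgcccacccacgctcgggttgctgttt
In Ddx4 the E-box begins at position -29 from the RefSeq start, which is inside the GENCODE M21 span of the gene, and in Mael at position -223. Piwil4 has neither motif in this window, and Tdrd5 has neither in its own. As deposited, the counts of Piwil4 were higher in FVB/N and those of Tdrd5 lower. A relation of these motifs to the counts was not tested. These are sequences of the reference genome, which is that of C57BL/6J, and those of FVB/N were not used here. A match describes letters and not a bound site.

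Prenatal DEHP in C57BL/6J went with no member past the 2-fold line. Between exposed C57BL/6J and vehicle C57BL/6J, 5 members were above and 5 below as deposited, as against 9 and 1 when scaled to spermatid markers, 0 and 10 when scaled to spermatocyte markers and 7 and 3 at equal totals. The log2 ratios ran from -0.26 for Piwil1 to 0.19 for Mov10l1, and their median was -0.00, as against -0.01 over all 16825 genes compared. Among all genes, 1.09% were past the line upwards and 1.15% downwards. No member differed by more than the model SD of its difference, and 6.57% of all genes did. The largest difference in counts was that of Tdrd6, at 81.3 counts lower with a model SD of the difference of 169.7. Both conditions are from the reused libraries. Over the same pair, the summed count of elongating spermatid markers went from 83801 to 70309, and that of seminal vesicle markers from 214761 to 67.6. Differences of 0 of 8 elongating spermatid and 0 of 5 seminal vesicle markers exceeded their model SDs.

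Prenatal DEHP in FVB/N also left all members within 2-fold. Between exposed FVB/N and vehicle FVB/N, 9 members were above and Tdrd1 alone below (-0.14) as deposited, as against 7 and 3 when scaled to either germ cell list. The median was 0.22, as against 0.00 over 16471 genes, of which 2.16% were past the 2-fold line upwards and 0.619% downwards. Mael had the highest log2 ratio (0.75), with 25.0 ± 9.38 counts in vehicle FVB/N and 42.6 ± 14.8 in exposed FVB/N (model SD). Its difference of 17.6 counts was just above the SD of the difference, 17.5, and Mael was the 1 member for which this held, as for 5.65% of all genes. Tdrd9 was next at 0.62, with a difference of 11.4 counts within its SD of 15.5. Both conditions are from the newly made libraries. The elongating spermatid sum went from 6862 to 8143 counts over the same pair and the epididymal sum from 176 to 40378. The part of either in the members' values was not tested.

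The response to DEHP was next compared between strains, as the log2 ratio in FVB/N minus that in C57BL/6J. None of the 10 members reached a difference of 1 log2 unit. Of 17556 genes, 4.45% did so upwards and 2.92% downwards. The members ran from -0.17 for Tdrd1 to 0.75 for Tdrd9, followed by Mael at 0.72, with a median of 0.33 as against 0.03 for all genes. For 8 of the 10 members the difference was above 0 as deposited, for 6 at equal totals, for 10 with spermatocyte scaling and for 3 with spermatid scaling, under which the median was -0.11. In C57BL/6J itself, Tdrd9 had a log2 ratio of -0.13 and Mael of 0.02. Without a spread between libraries, the difference between strains was not tested.

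Of the 7 comparisons, that of the vehicle strains had the most members past 2-fold as deposited, with 9, whereas both comparisons of first-generation strains had 8 under the spermatid scaling. Between vehicle FVB/N and vehicle C57BL/6J, neither exposed, 8 members were past the 2-fold line downwards and 1, Piwil4, upwards as deposited, whereas 8 were past it upwards and none downwards when conditions were scaled to the summed spermatid markers, and 2 upwards and 5 downwards when scaled to spermatocyte markers. The spermatid sum is 93.1% to 98.6% counts of elongating spermatid markers, and a scaling to round spermatid markers alone was not made. The background was 18.8% of 17086 genes downwards and 7.5% upwards as deposited, 1.95% and 93.2% under the spermatid scaling, and 10.1% and 39.8% under the spermatocyte scaling. The median log2 ratio of the members was -1.86 as deposited and 1.57 after scaling to spermatid markers, and that of all genes was -0.03 and 3.44, since a scaling shifts all genes alike. For 9 members the difference exceeded the SD of the difference, and for 41.2% of all genes.

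Ddx4 had the most extreme ratio of the members, with 252 ± 62.4 counts in vehicle C57BL/6J and 19.1 ± 7.81 in vehicle FVB/N (model SD), which is 13.2-fold lower, or -3.66 on the log2 scale. Only 2.63% of all genes had a lower ratio. Tdrd6 went from 527 ± 131 to 67.3 ± 19.6, 7.82-fold lower. Mael was 5.42-fold and Piwil1 4.53-fold lower. These 4 transcripts had the lowest ratios of the members. Tdrd9 (3.86-fold), Mov10l1 (3.67-fold), Tdrd1 (2.23-fold) and Tdrd5 (2.19-fold) were closer to the line. Under the spermatid scaling, 7 of these 8 members were reversed, to log2 ratios between 0.56 for Tdrd6 and 2.32 for Tdrd1, and Ddx4 alone kept its sign, while the median of all genes moved by 3.47.

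Opposite to them was Piwil4, which went from 12.8 ± 5.74 to 36.4 ± 12.3 counts (model SD), 2.84-fold higher, and 3.57% of all genes had a higher ratio. Piwil2 had 64.8 ± 18.9 counts in vehicle C57BL/6J and 83.0 ± 23.2 in vehicle FVB/N, a difference of 18.2 within its SD of 29.97. Piwil2 and Piwil4 are the PIWI genes already active in fetal germ cells, Piwil1 is that of meiosis and spermatids. Piwil4 shares its span with the antisense gene Gm10706 and the pseudogene Gm15586, both on the other strand, and the reads were mapped by strand.

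**Figure D2:**
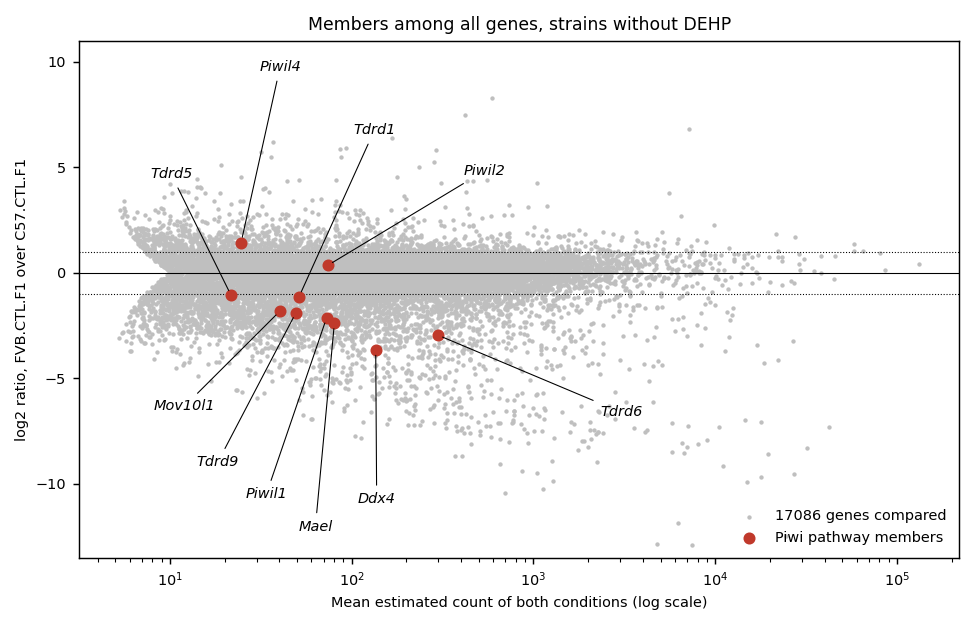
Log2 ratio of vehicle FVB/N over vehicle C57BL/6J (1 added to each count) against the mean estimated count of both conditions (log axis), for 17086 genes in grey and the 10 members in red, with dotted lines at 2-fold. As deposited, 8 members lie below the lower line, with Ddx4 at -3.66 and Tdrd6 at -2.95, and Piwil4 lies above the upper line at 1.44, whereas scaling to spermatid markers would put all 8 but Ddx4 above 0 and the median of all genes at 3.44.

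The strains exposed to DEHP gave like values. Between exposed FVB/N and exposed C57BL/6J, 7 members were past the 2-fold line downwards and 1 upwards as deposited, and 0 downwards and 8 upwards under the spermatid scaling. The background was 19.9% of 17377 genes downwards and 12% upwards as deposited, and 1.95% and 92% under the spermatid scaling. The members' median was -1.49 as against -0.07. The scaling to spermatocyte markers gave 2 members in each direction, with 7.52% of all genes downwards and 49.1% upwards. Ddx4 was 10.7-fold, Tdrd6 5.59-fold and Piwil1 3.50-fold lower in FVB/N as deposited. Piwil4 was 2.67-fold higher. Tdrd5 had a log2 ratio of -0.71 and was the 1 member of the former 8 that was not past the line. This comparison shares no sample with that of the vehicle conditions, but it lies across the same sets of libraries.

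Markers moved along the same contrasts. Elongating spermatid markers were at 83801 and 70309 counts in the first generation of C57BL/6J and at 6862 and 8143 in FVB/N. The members amounted to 15.9 counts per 1000 spermatid counts (round and elongating) in vehicle C57BL/6J, 17.6 in exposed C57BL/6J, 26.2 in F2 C57BL/6J, 46.1 in vehicle FVB/N and 48.0 in exposed FVB/N. This sum is 93.1% to 98.6% elongating spermatid counts. Per count of the round spermatid markers alone, the members amounted to 0.997, 1.23, 1.30, 0.667 and 1.34 in the same order. In vehicle FVB/N, the lowest of these, Crem alone held 408 of the 510 marker counts, as against 377 of 1357 in vehicle C57BL/6J. Between these 2 conditions, 7 of the 8 round spermatid markers were past 2-fold downwards as deposited, all but Crem. In vehicle FVB/N the members' log2 sum relative to vehicle C57BL/6J was -1.99. It lay below the sum of round spermatid markers (-1.41), which holds Crem, and above that of elongating ones (-3.61). By median log2 ratio, the members (-1.86) lay above both the round (-2.15) and the elongating spermatid markers (-3.27). Per spermatocyte count, the members amounted to 5.74, 4.17, 4.85, 2.62 and 2.81 in the same order, lower in FVB/N. Only 3 of the 8 spermatocyte markers had 10 counts or more in either FVB/N condition. Sycp1 alone held 72.4 of the 130 marker counts in vehicle FVB/N and 84.3 of 144 in exposed FVB/N. In vehicle C57BL/6J it held 92.8 of 236. The spermatocyte scaling rests on these same counts. Liver markers, too, went from 170343 to 911 counts between vehicle C57BL/6J and vehicle FVB/N. The part of these markers in the members' differences was not tested.

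**Figure D3:**
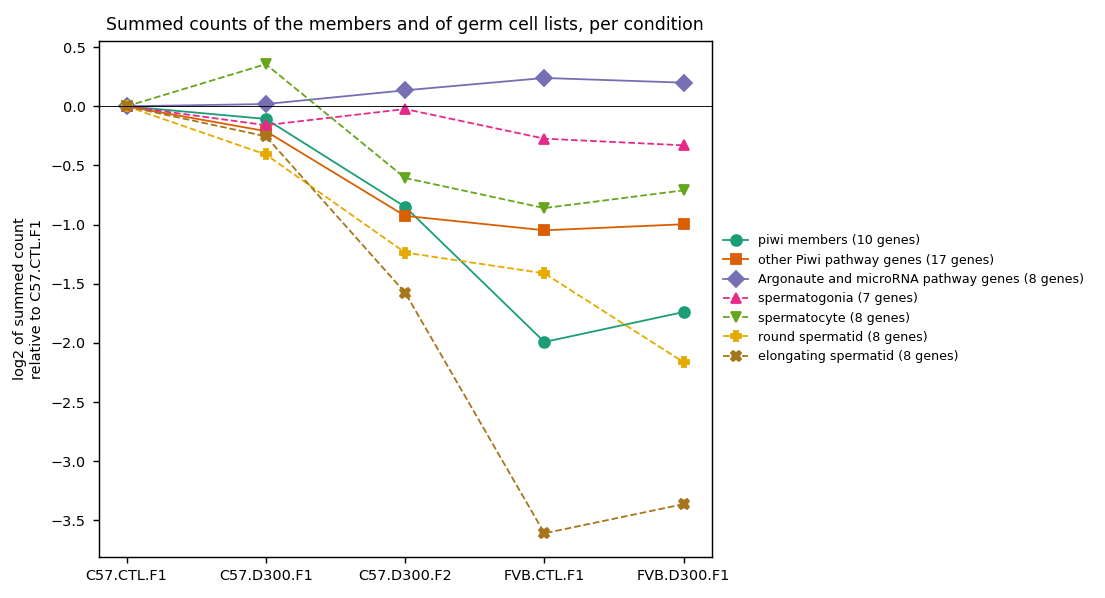
Log2 of the summed count of each list relative to vehicle C57BL/6J, by condition, with solid lines for the members and 2 related pathways and dashed lines for germ cell markers, without error bars since each point is 1 value. The members reach -1.99 in vehicle FVB/N, between the spermatocyte (-0.86) and the elongating spermatid markers (-3.61), and the Argonaute and microRNA genes stay between 0 and 0.24.

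The second generation of the exposed lineage lay between the first generation and FVB/N as deposited. Between F2 C57BL/6J and vehicle C57BL/6J, Ddx4 and Tdrd6 were past the 2-fold line downwards and no member upwards as deposited, whereas 3 members were past it upwards and none downwards under the spermatid scaling, 1 upwards and none downwards under the spermatocyte scaling, and 1 upwards and 1 downwards both at equal totals and with upper quartiles. The background was 10.2% of 17114 genes downwards and 4.1% upwards as deposited, 2.9% and 78.1% under the spermatid scaling, 4.73% and 18.7% under the spermatocyte scaling, 6.68% and 8.4% at equal totals, and 7.32% and 7.11% with upper quartiles. Ddx4 went from 252 to 93.7 counts, 2.69-fold lower, and Tdrd6 from 527 to 252, 2.09-fold lower. The median of the members was -0.65, as against -0.04 for all genes.

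For 8 of the 10 members the difference from vehicle C57BL/6J exceeded its SD, and for 26.9% of all genes. Of these 8, Piwil4 alone was higher, from 12.8 to 24.4 counts (log2 ratio 0.88), and the other 7 were Ddx4, Tdrd6, Mov10l1 (-0.78), Tdrd1 (-0.76), Piwil1 (-0.68), Tdrd9 (-0.61) and Mael (-0.61). Piwil2 (0.02) and Tdrd5 (-0.34) were within the SD. Against exposed C57BL/6J, the other condition of this lineage, Ddx4 was the 1 member past the 2-fold line downwards (-1.39) and none was past it upwards as deposited, with 2 upwards and 0 downwards under the spermatid and 1 and 0 under the spermatocyte scaling. The background of that comparison was 8.35% of 17133 genes downwards and 2.69% upwards as deposited, 2.94% and 68.5% under the spermatid scaling, and 3.42% and 40.7% under the spermatocyte scaling. Mov10l1 lay just inside the line at -0.97, and the members' median was -0.56. Differences of 5 members (Ddx4, Mov10l1, Tdrd6, Tdrd1 and Mael) exceeded their SDs, and those of 22.2% of all genes. Both comparisons use the same F2 C57BL/6J value and set newly made against reused libraries. The elongating spermatid sum was 28117 in F2 C57BL/6J, and the liver sum 4080 as against 170343 in vehicle C57BL/6J.

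Vehicle FVB/N and F2 C57BL/6J are both from the newly made libraries, though they differ in exposure and generation besides strain. Here 6 members were past the 2-fold line downwards in FVB/N and none upwards as deposited, and 0 downwards and 4 upwards under the spermatid scaling. Of 16969 genes, 11.6% were past it downwards and 4.2% upwards as deposited, and 0.595% and 86.9% under that scaling. The 6 were Ddx4 (93.7 against 19.1 counts, 4.91-fold lower), Tdrd6 (252 against 67.3, 3.75-fold), Mael (88.6 against 25.0, 3.54-fold), Piwil1 (74.0 against 26.3, 2.81-fold), Tdrd9 (2.52-fold) and Mov10l1 (2.11-fold). Their 6 differences exceeded the SDs, as for 29.2% of all genes. The members' median was -1.16. Piwil4, with 24.4 and 36.4 counts, differed by 12.0 counts, within its SD of 15.3. The lower counts of these 6 members in FVB/N as deposited were also seen inside 1 set of libraries, and the upper position of Piwil4 past 2-fold was not. Tdrd1 (-0.37) and Tdrd5 (-0.73), past 2-fold downwards between the vehicle strains, were within 2-fold here. The vehicle FVB/N values are the same in both comparisons, which are thus not independent.

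**Figure D4:**
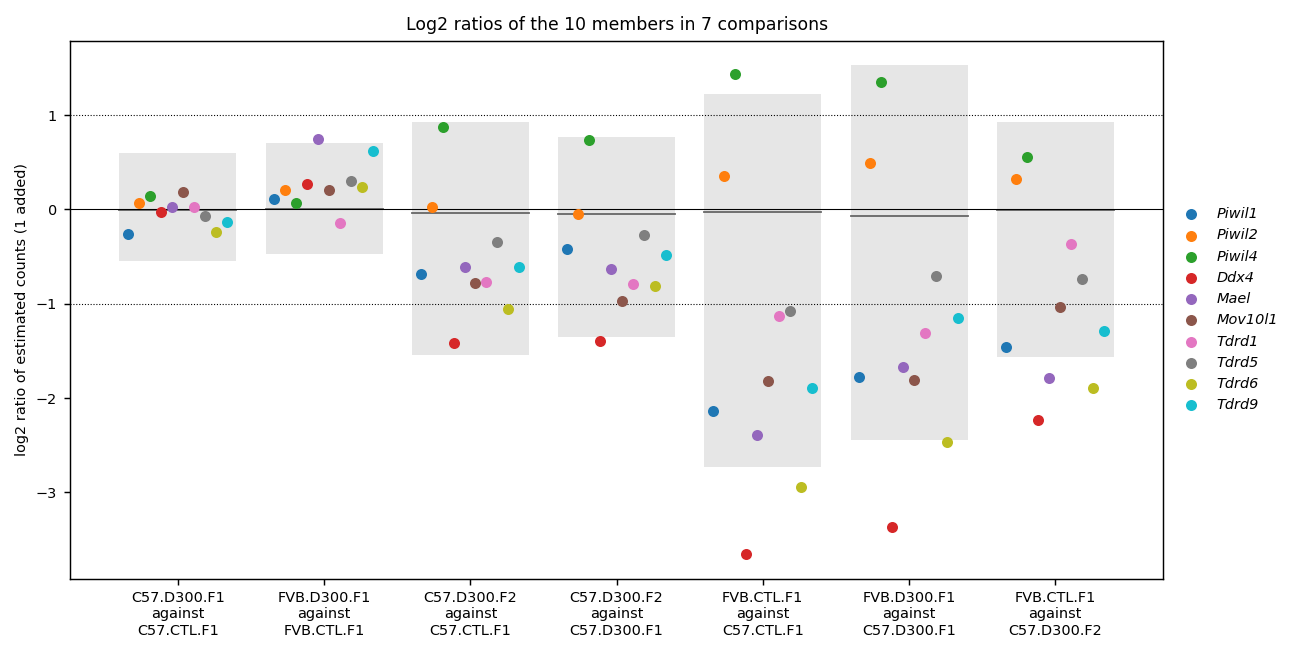
Log2 ratios (1 added to each count) of the 10 members in the 7 comparisons named under the axis, as coloured points, with the median of all genes as a grey line, the range from their 5th to their 95th percentile as a grey band and dotted lines at 2-fold. Both DEHP comparisons on the left hold all members within 2-fold, and in the 3 comparisons of strains on the right most members lie below the line as deposited, with Ddx4 lowest in each (under spermatid scaling the members' medians there are 1.57, 1.54 and 0.74, and those of all genes 3.44, 2.96 and 1.94).

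Ratios between members do not depend on the scaling of conditions. Ddx4 had 3.89 counts per count of Piwil2 in vehicle C57BL/6J, 3.64 in exposed C57BL/6J, 1.42 in F2 C57BL/6J, 0.230 in vehicle FVB/N and 0.240 in exposed FVB/N. For Tdrd6 per Piwil2 the values were 8.13, 6.54, 3.83, 0.811 and 0.826. Piwil1 per Piwil4 went from 9.28 and 6.97 in the first generation through 3.03 in the second to 0.722 and 0.745 in FVB/N. Each of these 3 ratios had its lowest values in both FVB/N conditions, whichever way the conditions are scaled. They divide members lower in FVB/N as deposited by members that were not, so this order follows from the pairs chosen. Mael per Ddx4 ran the other way, with 0.538, 0.557, 0.946, 1.31 and 1.84 in the same order of conditions. Mael per Piwil1 remained between 0.9499 and 1.499 in all 5 conditions, with no order by strain.

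Shares of the members' sum give the same picture. Tdrd6 held 38.9% of it in vehicle C57BL/6J and 19.8% in vehicle FVB/N, and Ddx4 18.6% and 5.61%. Piwil2 held 4.79% and 24.4%, and Piwil4 0.949% and 10.7%. In F2 C57BL/6J the 4 shares were 33.6%, 12.5%, 8.78% and 3.25%, between the others. Piwil2 had the largest share in both FVB/N conditions and Tdrd6 in the 3 conditions of C57BL/6J. These are shares of fragments and follow gene length as well as level.

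**Figure D5:**
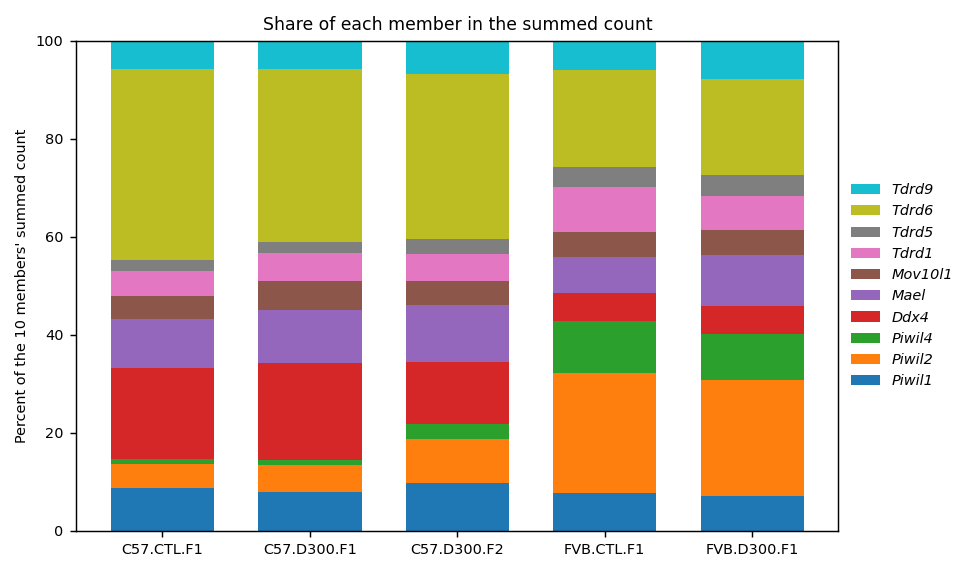
Share of each member in the summed estimated count of the 10 members, as stacked bars from 0 to 100 percent for each condition, without error bars. Piwil2 widens from 4.79% in vehicle C57BL/6J to 24.4% in vehicle FVB/N and Ddx4 narrows from 18.6% to 5.61%, and the exposed conditions have 5.41% and 23.7% for Piwil2 and 19.7% and 5.71% for Ddx4.

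Of 18 other genes of the pathway, 17 had estimates, all but Spocd1, and 14 or 15 were compared in each contrast. None was past the 2-fold line in either comparison with DEHP. Of all genes, 1.09% in C57BL/6J and 2.16% in FVB/N were past it upwards, and 1.15% and 0.619% downwards. Between vehicle FVB/N and vehicle C57BL/6J, 5 of 15 were past it downwards and 3 upwards as deposited, beside 18.8% and 7.5% of all genes. Under the spermatid scaling 0 were past it downwards and 14 upwards, beside 1.95% and 93.2% of all genes. Gtsf1, a cofactor of PIWI slicing and the gene of this list with the most counts, had 1077 counts in vehicle C57BL/6J, 752 in exposed C57BL/6J, 285 in F2 C57BL/6J, 108 in vehicle FVB/N and 121 in exposed FVB/N, and its log2 ratio of -3.30 between the vehicle conditions lay between those of Ddx4 and Tdrd6. The others downwards were Stk31 (103 to 29.8 counts), Rnf17 (133 to 43.0), Tex15 (91.7 to 27.7) and Henmt1 (18.9 to 6.39), the enzyme that methylates the ends of piRNAs. Thus these 5 had the profile of the majority of the members as deposited.

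Upwards were Exd1 (77.0 to 199 counts), Tdrkh (64.6 to 152), a mitochondrial Tudor protein for the trimming of piRNAs, and Dnmt3l (4.58 to 10.3, within its SD), a cofactor of DNA methylation in fetal germ cells. Exd1, a partner in the making of piRNAs for MIWI2, had 200.4 counts in exposed FVB/N and 64.8 in exposed C57BL/6J, and Tdrkh 132 and 68.6. As with Piwil4, the upper values of both were those of FVB/N. Btbd18, a factor of pachytene piRNA transcription, was past the line upwards in the exposed strains only, with 12.9 and 28.1 counts. In that pair Henmt1 had 16.6 counts in exposed C57BL/6J and 1.70 in exposed FVB/N, the latter under the limit of detection of 3 counts.

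In the second generation, Gtsf1 (-1.92 against vehicle C57BL/6J) and Stk31 (-1.29) were past the line downwards as deposited, 2 of 14 beside 10.2% of all genes. Under the spermatid scaling 0 were past it downwards and 8 of 14 upwards, beside 78.1% of all genes upwards. Against exposed C57BL/6J, Morc1 (-1.05) was past it downwards as well as deposited, beside 8.35% of all genes. The spermatid scaling put 0 past it downwards and 5 upwards there, beside 2.94% and 68.5% of all genes. Within the newly made libraries, vehicle FVB/N was compared with F2 C57BL/6J. There Gtsf1 (-1.39) and Tex15 (-1.37) were past it downwards and Exd1 (1.43) upwards as deposited, of 15 genes, beside 11.6% and 4.2% of all genes. Under the spermatid scaling 0 were past it downwards and 12 upwards, beside 0.595% and 86.9% of all genes. As deposited, Mybl1, which encodes A-MYB, remained within 2-fold in all 7 comparisons, with 74.4 to 105 counts, and so did Tdrd7, with 334 to 450.

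Genes of the related Argonaute and microRNA pathway, which works in all tissues, were set beside them. None of the 8 was past the 2-fold line in any of the 7 comparisons as deposited, and scaling to spermatid markers put all 8 past it upwards between vehicle FVB/N and vehicle C57BL/6J, together with 93.2% of all genes. Over the 7 comparisons as deposited, 0.619% to 19.9% of all genes were past it downwards and 1.09% to 12% upwards. Dicer1 had 1010 to 1265 counts, Xpo5 919 to 1129, Ago2 487 to 600, Drosha 321 to 515 and Dgcr8 296 to 427. Their sum was 3724 counts in vehicle C57BL/6J and 4397 in vehicle FVB/N, with a median log2 ratio of 0.20 as against -1.86 for the members.

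Further RNA-binding genes of the chromatoid body and germ cells were 6. Between vehicle FVB/N and vehicle C57BL/6J, 3 of them were past the line downwards and none upwards as deposited, beside 18.8% and 7.5% of all genes. Under the spermatid scaling 0 were past it downwards and 5 upwards, beside 1.95% and 93.2% of all genes. The 3 were, as deposited, Ddx25 (115 to 19.5 counts), a helicase of spermatids, Ybx2 (327 to 57.5), which stores messenger RNA in germ cells, and Kif17 (797 to 267), a motor protein. Ddx25 and Ybx2 were also past the line in the second generation against vehicle C57BL/6J, with 54.1 and 145 counts, beside 10.2% of all genes. Snd1 (1854 to 2548 counts over the 5 conditions) and Mov10 (118 to 189), which are expressed in many tissues, were not past it in any comparison as deposited.

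Over the 5 conditions, the centred log2 profile of the members had a median of 0.79 in vehicle C57BL/6J, 0.71 in exposed C57BL/6J, 0.14 in F2 C57BL/6J, -1.06 in vehicle FVB/N and -0.69 in exposed FVB/N. Tdrd9 lay nearest to it, at a Euclidean distance of 0.21 log2 units, and Ddx4 (1.89), Piwil2 (2.09) and Piwil4 (3.04) farthest. Of 8073 genes outside all lists with at least 100 counts in every condition, the nearest were Phf7 (0.13), Gm7120 (0.18), Elof1 (0.19), Cdkl2 (0.22) and Lrrc51 (0.24). Phf7, a reader of histone marks in the male germ line, had 490.2 counts in vehicle C57BL/6J, 489.8 in exposed C57BL/6J, 309 in F2 C57BL/6J, 132 in vehicle FVB/N and 164 in exposed FVB/N. These distances describe 5 values per gene.

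The members are spread over the genome. On GRCm38 (GENCODE M21) Ddx4 lies on chr13:112598333-112652475, Mael on chr1:166201201-166238747, Tdrd5 on chr1:156255296-156303664, Tdrd6 on chr17:43615335-43630299, Tdrd9 on chr12:111971559-112068854, Tdrd1 on chr19:56826209-56870012, Mov10l1 on chr15:88982909-89055152, Piwil1 on chr5:128702524-128755474, Piwil2 on chr14:70372477-70429383 and Piwil4 on chr9:14696230-14740733. Mael and Tdrd5 share a chromosome and no other pair does. Ddx4, Mael, Tdrd1 and Tdrd6 overlap no other annotated gene. Tdrd9 overlaps the protein-coding gene Rd3l on the other strand, Tdrd5 a transcript on each strand, Piwil1 a transcript on the other strand, and Piwil2 and Mov10l1 small RNA genes on the same strand.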

How the data were processed

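The authors depleted ribosomal RNA (RiboZero), fragmented the RNA, made strand-specific small RNA libraries, clipped adapters, dropped reads under 18 bases, mapped to mm10 with TopHat and quantified with Cuffdiff. Bases were called with software that included CASAVA 1.8.2, and the versions of TopHat and Cuffdiff and the release of the annotation are not given in the sources used here. The deposited signal is 1 estimated count per gene and condition, with a model variance beside it, in 10 columns. These totals were between 6921688 and 8602900. The 71 genes with a failed estimate in any condition were treated as missing there.

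Here log2 ratios (1 added), shares, list sums and per-kilobase levels were computed in Python 3.11.15 with pandas 2.3.3 and numpy 2.4.6, and the script was tested on simulated data. edgeR and DESeq2 could not be used, since single libraries have no values. The members and lists were chosen with earlier results of these data known. Named were all members, genes of the 3 related lists past 2-fold or among the 5 with the highest mean count, the 2 highest markers per list, and the 5 nearest profiles. Mybl1 and markers near 0 were named after their values were seen. Alternatives were 5 other scalings, 2 pseudocounts, 2 minimum counts, a stricter threshold and a requirement on the model SD.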

Additional observations from a re-analysis of the deposited data

How the results depend on the processing

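No paired analysis was possible because the files hold 1 value per condition, and for the same reason no library could be left out. Of 80 member values (7 log2 ratios and the strain difference of the DEHP ratio for each gene), none moved by 0.5 log2 units or more at equal totals, with median-of-ratios or upper-quartile factors, with 0.1 or 10 added, or without a minimum count. Scaling to spermatid markers moved 30 and turned the direction of 20 that were past 2-fold as deposited, and scaling to spermatocyte markers moved 40. Shifts of the median of all genes reached 0.29 at equal totals, 0.22 with upper quartiles, -0.11 with median of ratios, 3.47 with spermatid and 1.05 with spermatocyte scaling.

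F2 C57BL/6J against vehicle C57BL/6J gave 1 member higher and 1 lower than 2-fold at equal totals and with upper quartiles, 3 and 0 with spermatid scaling (median 0.89; Ddx4 0.14, Tdrd6 0.51), 1 and 0 with spermatocyte scaling (median -0.047), and 0 lower at 2 log2 units. Against exposed C57BL/6J there were 2 and 0 with spermatid (median 0.73), 1 and 0 with spermatocyte scaling (0.39), and 0 lower at 2 log2 units.

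Vehicle FVB/N against vehicle C57BL/6J gave 8 and 0 with spermatid scaling (median 1.57; Piwil1 1.33, Mael 1.07, Mov10l1 1.60, Tdrd1 2.32, Tdrd5 2.28, Tdrd6 0.56, Tdrd9 1.54), 2 and 5 with spermatocyte scaling (-1.02), 0 and 4 with at least 100 counts (-2.67, 4 members compared) and 0 and 4 at 2 log2 units. Exposed FVB/N against exposed C57BL/6J gave 8 and 0 (1.54; Piwil1 1.25, Mael 1.37, Mov10l1 1.19, Tdrd1 1.70, Tdrd6 0.59, Tdrd9 1.86), 2 and 2 (-0.44), 0 and 3 (-2.47) and 0 and 2, and 0 higher with 10 added. Vehicle FVB/N against F2 C57BL/6J gave 4 and 0 with spermatid scaling (0.74; Piwil1 0.46, Mael 0.13, Mov10l1 0.86, Tdrd6 0.054, Tdrd9 0.62), and 1 lower both with at least 100 counts (-1.89) and at 2 log2 units.

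With the longest transcript as length, chosen after seeing the data, Piwil4 had 3.89 and 11.03 counts per kilobase in vehicle C57BL/6J and vehicle FVB/N, and Tdrd5 7.93 and 3.63. Over all genes, spermatid scaling gave 15929 higher and 334 lower in vehicle FVB/N against vehicle C57BL/6J, where 1282 and 3207 were so as deposited, and it turned the median of the 6 chromatoid body and germ cell RNA-binding genes there from -1.03 to 2.37. The other medians of related lists under it moved by 0.5 log2 units or more where the strains or generations were compared. The Cuffdiff model SD limits precision, and its source in the 5 libraries is not given.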
